A study of Mus musculus with 4 samples.

Results

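Chromatin modifying enzyme genes were followed across 2 lists of transketolase peaks from mouse retina. The group was taken by symbol and comprised genes named Dnmt, Tet, Kmt, Setd, Ezh, Kdm, Kat, Hdac or Sirt followed by a digit. The gene table held 78 such symbols among 49997, of which 69 were protein-coding, 8 were pseudogenes and 1 was a long noncoding RNA. The control list assigned peaks to 31 of them and the induced list to 34, all protein-coding. These genes held 71 of 18267 control peaks (0.389%) and 95 of 30791 induced peaks (0.309%).

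The peaks came from chromatin immunoprecipitation with sequencing (ChIP-seq), in which DNA bound by a protein is recovered with an antibody and sequenced. All animals were Tet-opsin-VEGFA mice, which carry an inducible VEGFA transgene; the name points to the opsin promoter of photoreceptors, and the labels gave neither the inducing agent nor the age. The control retinas came from noninduced and the induced retinas from induced mice, 2 retinas for each condition, as a model of age-related macular degeneration with an excess of the growth factor VEGF. Each condition gave 1 ChIP library and 1 input library, so variation between animals was not measured and the conditions could not be tested against each other. The retina was taken whole, so a change in the makeup of its cells and a change in occupancy within a cell cannot be told apart. The lists report occupancy of DNA and not expression, so the tissue label could not be checked against marker genes.

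Many enzymes of this group add or remove small chemical marks on histones or DNA, and several depend on metabolites. The group was taken by symbol, so this need not hold for every member. Methyltransferases use S-adenosylmethionine, acetyltransferases use acetyl-CoA, sirtuins use NAD+, and the Tet dioxygenases and most lysine demethylases use 2-oxoglutarate and oxygen. Transketolase is an enzyme of the pentose phosphate pathway, and the study's title concerns a role apart from its enzymatic activity. In the retina, such enzymes act in the development and upkeep of photoreceptors and glia.

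Peaks that reached a window around a start site are shown first. Of the 11 promoter peaks at these genes, 5 reached the 300 bases from 250 before to 50 after the start site. The control list gave those of Kmt5a, Kmt5b and Kdm1a, and the induced list those of Tet1 and Hdac7. The windows below are the gene strand from RefSeq, build GRCm38.p6, and capitals mark the GC box GGGCGG, read on either strand.
Kmt5a, chr5:124439680-124439979, plus strand: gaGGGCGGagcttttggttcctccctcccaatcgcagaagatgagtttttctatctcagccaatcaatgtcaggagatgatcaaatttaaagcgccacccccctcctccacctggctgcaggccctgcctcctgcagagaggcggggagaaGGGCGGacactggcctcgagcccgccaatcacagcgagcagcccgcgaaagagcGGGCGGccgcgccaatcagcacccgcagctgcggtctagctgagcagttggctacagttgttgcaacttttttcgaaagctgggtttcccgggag
Kmt5b, chr19:3767171-3767470, plus strand: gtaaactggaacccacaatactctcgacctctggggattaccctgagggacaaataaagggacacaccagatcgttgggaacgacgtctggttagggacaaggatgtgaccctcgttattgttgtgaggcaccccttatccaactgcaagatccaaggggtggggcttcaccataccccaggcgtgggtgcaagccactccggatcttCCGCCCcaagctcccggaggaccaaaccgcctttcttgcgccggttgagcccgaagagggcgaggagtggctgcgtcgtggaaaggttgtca
Kdm1a, chr4:136602674-136602973, minus strand: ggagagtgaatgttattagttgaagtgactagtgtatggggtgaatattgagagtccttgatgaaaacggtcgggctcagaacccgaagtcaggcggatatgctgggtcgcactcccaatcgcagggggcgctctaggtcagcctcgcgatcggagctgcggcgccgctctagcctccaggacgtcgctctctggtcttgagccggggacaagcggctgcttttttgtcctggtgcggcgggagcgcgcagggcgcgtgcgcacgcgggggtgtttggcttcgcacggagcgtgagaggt
Tet1, chr10:62887275-62887574, minus strand: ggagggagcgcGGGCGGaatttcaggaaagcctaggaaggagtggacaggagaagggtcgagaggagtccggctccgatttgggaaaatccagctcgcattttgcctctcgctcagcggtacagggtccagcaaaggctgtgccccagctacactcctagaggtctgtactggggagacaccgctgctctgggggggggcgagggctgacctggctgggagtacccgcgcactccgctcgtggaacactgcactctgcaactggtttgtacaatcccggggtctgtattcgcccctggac
Hdac7, chr15:97844453-97844752, minus strand: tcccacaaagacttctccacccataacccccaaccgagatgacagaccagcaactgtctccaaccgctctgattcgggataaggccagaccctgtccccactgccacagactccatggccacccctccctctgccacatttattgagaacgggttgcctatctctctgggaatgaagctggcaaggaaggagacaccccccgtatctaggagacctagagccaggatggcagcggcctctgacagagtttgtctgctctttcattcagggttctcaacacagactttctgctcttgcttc
The control peaks covered all 300 bases at Kmt5a and Kmt5b and 102 bases at Kdm1a, and the induced peaks covered 251 bases at Tet1 and all 300 at Hdac7. The bases covered at Kdm1a lay upstream of its start site, which the peak did not reach. Kmt5a held 3 GC boxes, Kmt5b and Tet1 held 1 each, and none was found in the windows of Kdm1a and Hdac7. A GC box was present in 35.7% of 32851 promoter windows of all genes and in 61.9% of the 84 windows of 58 members. CpG dinucleotides numbered 29 in the window of Kdm1a, 18 in Kmt5a, 17 in Tet1, 16 in Kmt5b and 6 in Hdac7, against a median of 7 over all windows and 21 over those of the members.

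Promoter peaks were listed at 7 members without induction and at 4 with it, and at none in both, where the background of protein-coding genes with one in both was 0.639%. A promoter peak had its centre within 2 kb of a start site. The background was 3.39% of all genes and 6.8% of protein-coding genes in the control list, against 8.97% of the 78 members and 10.1% (95% Wilson interval 5.0 to 19.5) of the 69 protein-coding ones. In the induced list it was 3.81% of all genes and 7.32% of protein-coding genes, against 5.13% and 5.8% (2.28 to 14.0) of members. Both backgrounds for protein-coding genes lay within the members' intervals. Fold enrichment, tags (reads of the ChIP library in the peak) and −log10 p are the authors' own values for each peak, and each list was made against the input of its own condition. The background behind the fold was not given, so folds are read within a list.

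The DNA methyltransferases and Tet enzymes set and remove DNA methylation. Dnmt3a, which places new methyl groups, held a control promoter peak of 24 tags at 7.33-fold (chromosome 12, 3892953 to 3893856), centred 1661 bp downstream of a start site. That start site lies within the gene: the peak stood at 81.4% of the gene's length from its 5′ end and also overlapped Gm31623. The induced peak of Dnmt3a was a separate exon peak of 14 tags at 5.97-fold (3912390 to 3912984), centred 1756 bp before the 3′ end of the gene. Dnmt3b held 1 induced peak, 6492 bp upstream of its start site, with 12 tags at 6.44-fold. Dnmt1, the maintenance enzyme, and Dnmt3l, a catalytically inactive partner of Dnmt3a, held no peak in either list, whether assigned or by position.

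All 3 Tet genes, which encode the dioxygenases that oxidise methylated cytosine, held peaks in both lists, with 7 control and 9 induced peaks between them. The background with an assigned peak in both was 22.9% of protein-coding genes, but the Tet genes are long (81.5 to 94.8 kb). Of protein-coding genes of 60 kb or more, 65.0% held a control peak inside and 77.1% an induced one. Tet1 held a promoter peak in the induced list only, with 11 tags at 9.66-fold (chromosome 10, 62886973 to 62887525), centred 76 bp downstream of the start site shown above. Its control peaks lay 9987 bp upstream, with 15 tags at 5.86-fold, and in an intron, with 16 tags at 4.89-fold. Tet2 held 3 control and 5 induced peaks, and most of these were intergenic. The control peak of highest fold at Tet2 was in an intron, with 18 tags at 7.82-fold. An intergenic control peak 68659 bp upstream (chromosome 3, 133612309 to 133613790) held 35 tags at 6.35-fold, the highest tag count of any member in that list. The induced peak of highest fold at Tet2 was intergenic, with 10 tags at 9.75-fold. Tet3 held an induced exon peak of 10 tags at 8.59-fold, the lowest tag count of that list, 373 bp from the 3′ end of the gene.

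Lysine methyltransferases of the Kmt, Setd and Ezh families held 19 control and 22 induced peaks. Kmt5a, which places the single methyl group on lysine of histone H4, held a control promoter peak of 33 tags at 6.84-fold (chromosome 5, 124439491 to 124440838), centred 235 bp from the start site. Kmt5b, which extends that methylation, held one of 28 tags at 6.35-fold (chromosome 19, 3766918 to 3767945), centred 11 bp from the start site. Setd2, which trimethylates histone H3 in transcribed gene bodies, held one of 31 tags at 6.94-fold (chromosome 9, 110533259 to 110534505), centred 1285 bp downstream. None of the 3 held an induced promoter peak. In the induced list Kmt2a, a methyltransferase of active promoters, held a promoter peak of 10 tags at 9.66-fold (chromosome 9, 44880492 to 44881044), centred 522 bp downstream. The nearest induced peak to Kmt5b was intergenic and 25565 bp upstream, with 11 tags at 10.74-fold.

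Kmt2c, which methylates histone H3 at enhancers, held 6 control and 4 induced peaks. Its control peaks ran from 21 to 32 tags and from 4.89-fold to 6.84-fold, and 1 of them was an exon peak (chromosome 5, 25346927 to 25347978; 22 tags at 4.89-fold). Its strongest induced peak was an exon peak of 43 tags at 15.36-fold (25271843 to 25273073), the highest tag count of any member in that list, 663 bp from the 3′ end. A further induced exon peak at Kmt2c held 11 tags at 8.59-fold. Kmt2b, a close relative of Kmt2a, held an induced exon peak of 11 tags at 6.44-fold (chromosome 7, 30585245 to 30585870). Ezh2, the catalytic subunit of Polycomb repressive complex 2, held 2 control intron peaks at 8.31-fold and 5.86-fold and 5 induced peaks. The induced exon peaks of Ezh2 held 24 tags at 16.47-fold (chromosome 6, 47530086 to 47530597), centred 67 bp from the 3′ end, and 12 tags at 12.89-fold (47540638 to 47541047). Its paralog Ezh1 held no peak in either list.

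Lysine demethylases held 19 control and 25 induced peaks at 10 of 18 protein-coding members in each list, with 4 members in both. The backgrounds were 34.7% (control), 45.5% (induced) and 22.9% (both) of protein-coding genes. Kdm6b, which removes the Polycomb mark, had the highest −log10 p of any member in the control list, 8.99, at its promoter peak of 23 tags and 8.30-fold (chromosome 11, 69417593 to 69418225). That peak was centred 1714 bp upstream of the listed start site, which lies within the gene, and stood at 11.2% of the gene's length from its 5′ end. Kdm1a, a flavin-dependent demethylase also known as LSD1, held a control promoter peak of 17 tags at 7.82-fold (chromosome 4, 136602872 to 136603419), centred 422 bp upstream. Kdm7a held one of 17 tags at 6.84-fold (chromosome 6, 39205399 to 39205960), centred 1094 bp downstream. None of the 3 held an induced promoter peak, and Kdm6b held no induced peak at all.

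The highest induced fold of any member, 19.33, was assigned to Kdm1a (chromosome 4, 136540645 to 136541494; 31 tags). This peak lay beyond the 3′ end of Kdm1a and inside the neighbouring gene Luzp1. The induced peak of 16.11-fold assigned to the Y-linked Kdm5d (15 tags) was likewise intergenic and overlapped the pseudogene Rhoay-ps3. Kdm5c, the X-linked relative of Kdm5d, held an induced exon peak of 11 tags at 8.59-fold (chromosome X, 152271093 to 152271559). Of 4 X-linked members Kdm5c alone had a peak. An assigned peak lay at 34.7% (control) and 45.5% (induced) of protein-coding genes. The share of X-linked genes was not computed, and 4 members are too few to compare. Kdm4c held 6 control and 7 induced peaks, but 3 of the control and 5 of the induced ones were intergenic and lay past its 3′ end, up to 484710 bp from the start site. Kdm2a had an intron peak among the highest control folds, at 8.31-fold with 18 tags.

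Acetyltransferases held 8 control and 10 induced peaks and no promoter peak. The family had only 8 protein-coding members, and promoter peaks lay at 6.8% (control) and 7.32% (induced) of protein-coding genes. Kat6b, a MYST-family acetyltransferase, held 4 control peaks of 4.89-fold to 6.84-fold and 5 induced peaks of 7.52-fold to 12.89-fold. One of the induced peaks of Kat6b was an exon peak of 11 tags at 10.72-fold (chromosome 14, 21669770 to 21670083). Kat6a, its paralog, had no control peak and 3 induced peaks, led by an exon peak of 15 tags at 16.11-fold (chromosome 8, 22942751 to 22943084) 342 bp from the 3′ end. Kat7 held 3 peaks and Kat8 held 1 in the control list, and neither held one in the induced list. Kat5 had no peak in either.

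Histone deacetylases held 13 control and 26 induced peaks. Hdac9, a class IIa deacetylase and the longest member at 870.0 kb, held 9 peaks in each list. The control peaks of Hdac9 were all intronic, with 14 to 30 tags and folds of 4.24 to 8.31. Its induced peaks comprised 8 in introns and 1 upstream, and the strongest, an intron peak, held 25 tags at 17.18-fold (chromosome 12, 34306640 to 34307225). Hdac4, another class IIa deacetylase, held 3 control and 9 induced peaks. The induced set of Hdac4 included a promoter peak of 10 tags at 8.77-fold (chromosome 1, 92179105 to 92179456), centred 1061 bp downstream of a start site. Its control set included an exon peak of 16 tags at 5.38-fold (91991149 to 91991827).

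Hdac7, also of class IIa, held no control peak and 5 induced peaks. Its promoter peak (chromosome 15, 97844174 to 97844774) held 11 tags at 7.52-fold, centred 29 bp from a start site, and an exon peak (97792408 to 97793124) held 13 tags at 10.74-fold. Hdac2, a class I deacetylase of the repressor complexes, had the highest −log10 p of any member in either list, 19.22, at an exon peak of 15 tags and 16.11-fold (chromosome 10, 37001634 to 37001894), centred 125 bp from the 3′ end. Hdac11 had the highest control fold of any member, an intron peak of 24 tags at 10.26-fold (chromosome 6, 91171520 to 91172618). Sirtuins, the NAD-dependent deacylases, had assigned peaks at 3 of 7 genes without induction (1 each at Sirt1, Sirt2 and Sirt5), against a background of 34.7% of protein-coding genes. With induction 1 of 7 had one (Sirt2), against 45.5%. These backgrounds were not matched for length, and sirtuin genes are short (6.01 to 29.8 kb). Of protein-coding genes under 20 kb, 9.03% held a control peak inside and 14.1% an induced one. Of those of 20 to 60 kb the shares were 29.7% and 40.9%. The induced peak of Sirt2 (16.11-fold, 17 tags) lay 13760 bp upstream, inside Sars2, and was also assigned to Ccer2. A further induced peak inside Sirt2, of 10 tags at 8.59-fold, was assigned to Rinl. Sirt3, Sirt4, Sirt6 and Sirt7 had no assigned peak.

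**Figure D1:**
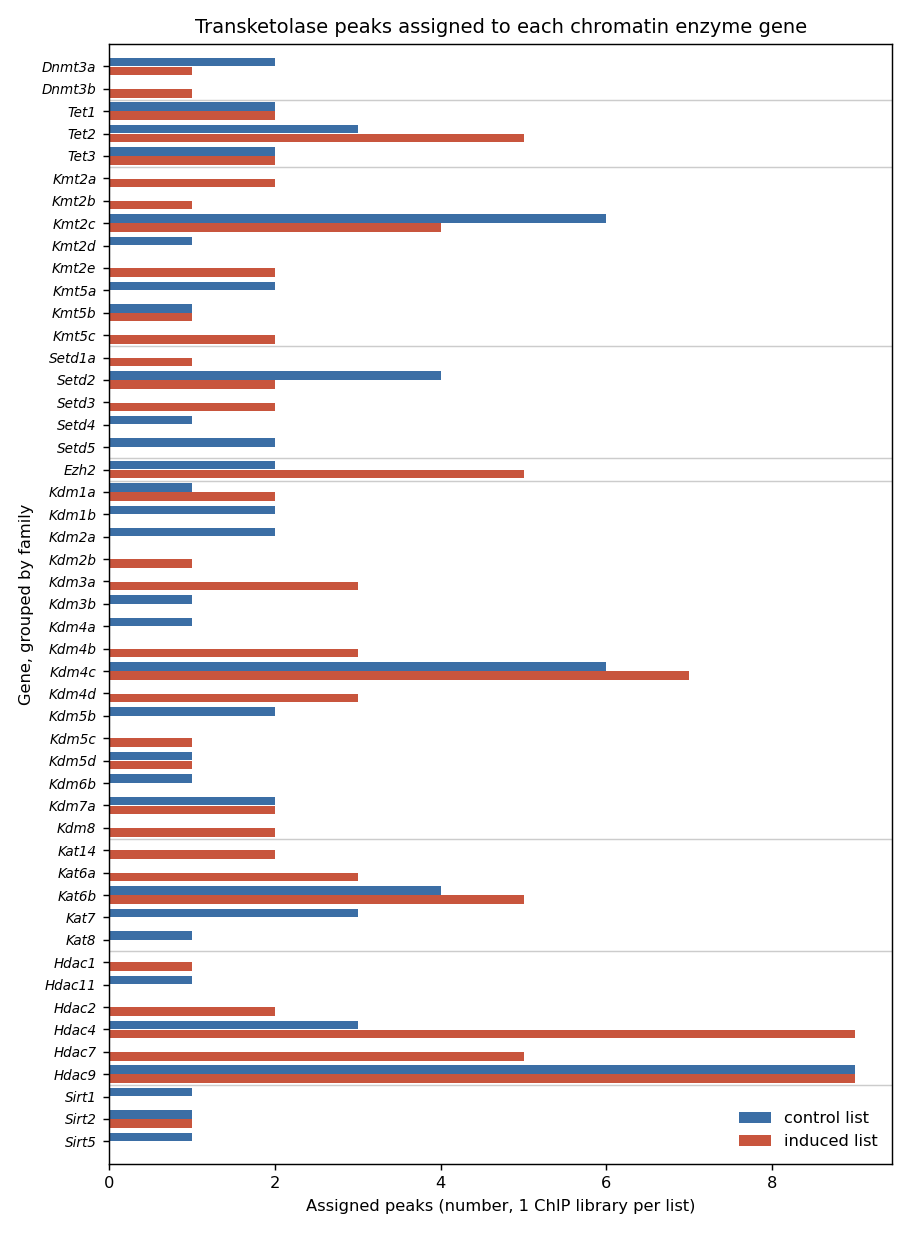
Number of peaks assigned to each chromatin enzyme gene with at least 1 peak (bars; horizontal axis, peaks; vertical axis, genes by family) in the control and induced lists, 1 ChIP library each. Hdac9 held 9 peaks in both lists, Hdac4 3 and 9, and Hdac7 0 and 5.

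As a whole the members' peaks were of ordinary strength for their lists. Control member peaks had 14 to 35 tags with a median of 18, equal to the median of all control peaks, and a median fold of 5.86, also equal. Induced member peaks had 10 to 43 tags with a median of 11, equal to that of all induced peaks, and a median fold of 8.77 against 8.59. No member peak reached 20-fold, against 1073 of all induced peaks and 1 of all control peaks. At a −log10 p of at least 10 stood 0 of 71 control member peaks, against 0.838% of all control peaks, and 7 of 95 induced ones (7.37%), against 6.07% of all induced peaks. The authors' false discovery rate ran from 1.66% to 5.9% over the control and from 0% to 0.49% over the induced member peaks. Control peaks started at 14 tags and induced peaks at 10, so most member peaks lay near the floor of their lists. Total library depth was unknown.

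Assigned peaks of any class were found at 39.7% of the 78 members in the control list, against a background of 18.2% of all genes, and at 43.6% against 23.8% in the induced list. Among protein-coding genes the shares were 44.9% (33.8 to 56.6) of members against 34.7% in the control, and 49.3% (37.8 to 60.8) against 45.5% in the induced list. Members were long, with a median of 43.1 kb against 17.1 kb for all protein-coding genes. A peak inside the gene by position, whatever gene it was assigned to, was found at 32 of 69 protein-coding members (46.4%) against a background of 25.2% in the control list, and at 40 (58.0%) against 33.3% in the induced list.

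Split by length, the shares came closer. Of 14 members under 20 kb, 2 control and 3 induced held a peak inside (14.3% and 21.4%), against 9.03% and 14.1% of all protein-coding genes of that length. Of 29 members of 20 to 60 kb the counts were 11 and 13 (37.9% and 44.8%), against 29.7% and 40.9%. Of 26 members of 60 kb or more they were 19 and 24 (73.1% and 92.3%), against 65.0% and 77.1%. The members' shares lay above the background in all 6 comparisons, and the background lay inside the Wilson interval in all 6. Per Mb of gene, members held 12.7 (exact Poisson interval 9.71 to 16.3) control and 15.8 (12.5 to 19.8) induced peaks, against 9.2 and 13.8 over all protein-coding genes. The control interval lay above the background and the induced one included it. Without Hdac9 the densities were 13.2 and 17.3 per Mb. Intervals cover counting error only.

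**Figure D2:**
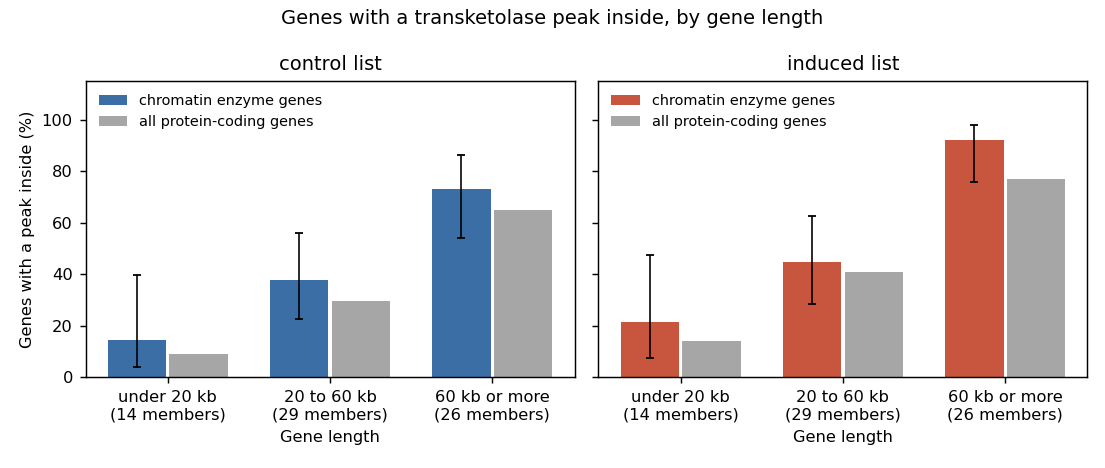
Share of protein-coding genes with a transketolase peak inside (vertical axis, %) by gene length (horizontal axis) for chromatin enzyme genes (coloured bars, with 95% Wilson intervals) and all protein-coding genes (grey bars). In the longest class 73.1% and 92.3% of members held one in the control and induced lists, against 65.0% and 77.1%.

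Introns held 44 of the 71 control member peaks (62.0%, 50.3 to 72.4), against 34.2% of all control peaks, and 42 of the 95 induced ones (44.2%, 34.6 to 54.2), against 30.8%. Exons held 2 control member peaks (2.82%, 0.776 to 9.7), against 2.1% of all control peaks, and these lay at 2 members (2.9%) against a background of 1.65% of protein-coding genes. In the induced list they held 12 member peaks (12.6%, 7.38 to 20.8), against 3.13% of all induced peaks. These 12 lay at 10 members, or 14.5% (8.07 to 24.7) of the 69 protein-coding ones, against a background of 3.84%. Gene lengths were not matched to these backgrounds. The exon peaks closest to the 3′ ends of Ezh2, Hdac2, Hdac7, Kat6a, Kmt2c and Tet3 are counted again below, among peaks near the 3′ end. Among peaks in exons or introns alone, exons held 22.2% (13.2 to 34.9) of the induced member peaks against 9.22% of all induced peaks, and 4.35% (1.2 to 14.5) of the control member peaks against 5.79%. The difference between the lists was not tested.

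**Figure D3:**
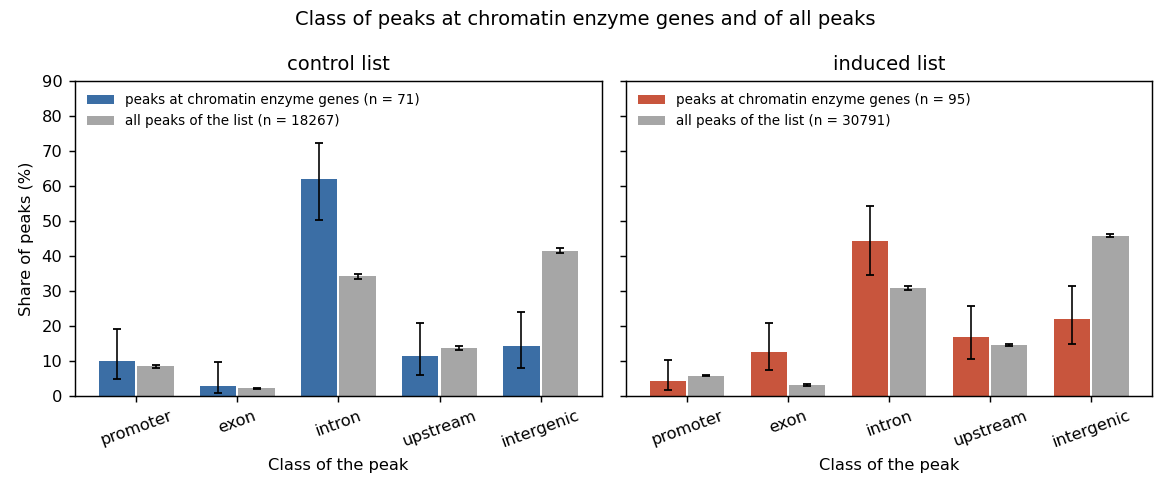
Share of peaks in each class (vertical axis, %) for peaks at chromatin enzyme genes (coloured bars) and all peaks of the list (grey bars), with 95% Wilson intervals. Exon peaks made up 12.6% of member peaks in the induced list and 2.82% in the control list.

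Induced peaks lay within 1 kb of the 3′ end at 8 members. Among peaks inside protein-coding members of known strand, 8 of 74 induced peaks (10.8%, 5.58 to 19.9) and 0 of 59 control peaks (0 to 6.11) had their centre within 1 kb of the 3′ end. Over all protein-coding genes the shares were 5.24% and 3.11%. The 8 peaks lay at Ezh2 (67 bp from the end), Hdac7 (105 bp), Hdac2 (125 bp), Setd5 (254 bp), Kmt2d (339 bp), Kat6a (342 bp), Tet3 (373 bp) and Kmt2c (663 bp). That is 11.6% of 69 members, against a background of 3.33%, where the background of the control list was 1.34%. Members and background were both counted by position. The peak at Kmt2d was assigned to the neighbour Prkag1 as a promoter peak, and that at Setd5 to Lhfpl4. The peak at Hdac7 also overlapped the gene Slc48a1. Of the induced peaks with a −log10 p of at least 7, 4 of 15 inside members (26.7%, 10.9 to 52.0) lay there, against 14.2% of such peaks over all protein-coding genes. This measure was chosen after the positions had been seen. The background of 5.24% lay just under the interval over all induced peaks, and that of 14.2% lay inside the interval at the higher threshold.

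**Figure D4:**
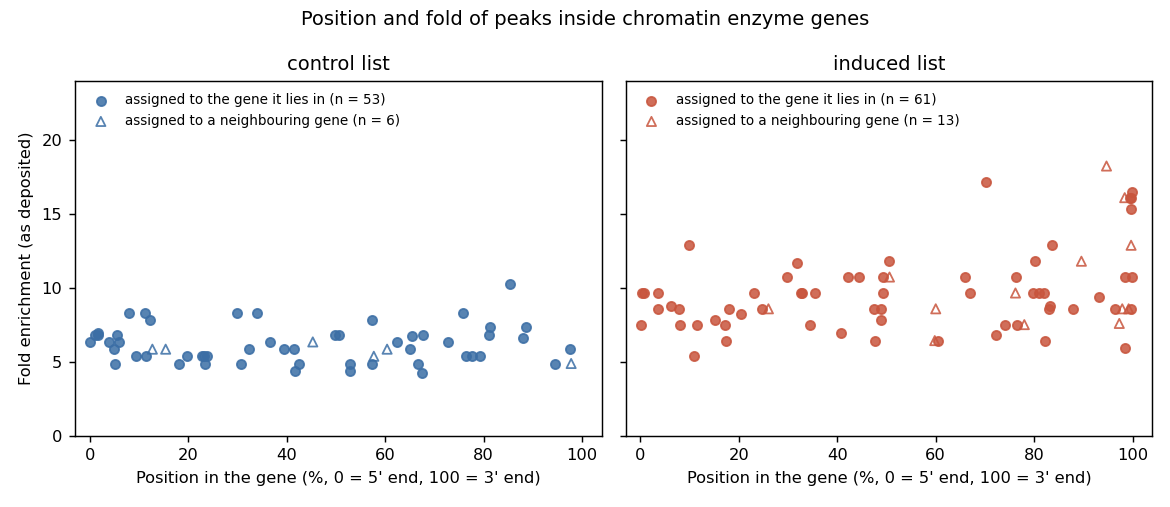
Fold enrichment as deposited by the authors (vertical axis) against position along the gene (horizontal axis, %, from the 5′ to the 3′ end) for each peak inside a protein-coding member of known strand. Filled circles are peaks assigned to the gene they lie in and open triangles those assigned to a neighbour. In the induced panel the peaks of Ezh2 at 16.47-fold, Kat6a and Hdac2 at 16.11-fold and Kmt2c at 15.36-fold stand at the right edge.

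Several peaks inside these genes were assigned to their neighbours. By position, 8 control peaks in 6 members and 16 induced peaks in 14 members were assigned elsewhere. Kmt2d, an enhancer methyltransferase related to Kmt2c, had no induced peak assigned to it, yet held 2 inside the gene, of 20 tags at 18.25-fold (chromosome 15, 98833479 to 98834354) and 14 tags at 8.59-fold, both assigned to Prkag1. Kdm3b, a demethylase of histone H3, likewise held an induced peak of 17 tags at 16.11-fold, assigned to Reep2 and centred 1006 bp from the 3′ end. Setd5 held induced peaks of 12.89-fold and 7.6-fold assigned to Lhfpl4. Kdm5a held 2 control peaks of 6.84-fold and an induced peak of 5.37-fold, all assigned to Ccdc77. Kmt2a held 2 control peaks, of 5.38-fold and 4.89-fold, assigned to Ttc36. The pseudogene Hdac1-ps held an induced peak of 25 tags at 10.74-fold assigned to Vit. After this count, 14 of 69 protein-coding members had no peak of either kind, with a median length of 18.25 kb. Neither this count nor that of peaks assigned elsewhere was computed over all protein-coding genes. They therefore describe these members only and are not read as a trait of the group.

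Not one member peak overlapped a peak of the other list. This was 0 of 71 control peaks, which allows a share of up to 4.23%, and 0 of 95 induced peaks (up to 3.16%), against 2.73% of all control and 1.63% of all induced peaks. Shares of that size were therefore not detectable with this number of peaks. At the level of genes, 16 members had an assigned peak in both lists, which is 51.6% of the control and 47.1% of the induced members. Over all genes, 66.5% of control and 50.8% of induced genes were in both. The 16 made up 23.2% of protein-coding members, against a background of 22.9%. For the 49 control peaks at these 16 members, the nearest induced peak of the same gene was a median of 18.4 kb away. The closest of these were at Setd2 (1056 bp) and Kat6b (1091 bp), both between intron peaks. By position, the control intron peak of Sirt2 and the induced peak inside Sirt2 that was assigned to Rinl were 4 bp apart.

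Related chromatin genes outside the naming pattern formed a further list of 96 genes, made up of complex partners and of enzymes with other names. Of these, 49 (51.0%) had an assigned peak without induction and 48 with it, against backgrounds of 34.7% and 45.5% of protein-coding genes. Promoter peaks lay at 16 (16.7%) and 10 (10.4%) of the 96, against 6.8% and 7.32%. The list was chosen with earlier results of these data known, and its gene lengths were not matched to the background. Among 8 DNA methylation partners, control promoter peaks lay at 4 (Uhrf2, Tdg, Mbd1 and Zbtb38, from 5.38-fold to 6.35-fold) and induced ones at 2 (Tdg and Zbtb4, both 8.59-fold). This part had the highest control share, but it rested on 4 genes. The control peaks of Zbtb38 (14 tags) and Tdg (15 tags) lay at or near the floor of the list, and those of Mbd1 and Uhrf2 held 25 and 26 tags. The control promoter counts of the other parts were 0 of 9 Polycomb, 3 of 12 COMPASS complex and 4 of 21 deacetylase complex partners. Among the parts listed as enzymes they were 1 of 21 lysine and 1 of 9 arginine methyltransferases, 2 of 9 demethylases and 1 of 8 acetyltransferases. Jarid2 was listed both with the Polycomb partners and with the demethylases, so these parts overlap. Induced counts in these parts were 1 or 2 each, and that of the Polycomb partners and that of the demethylases were both Jarid2. Of the 128 control peaks at these 96 genes, 7 (5.47%) overlapped an induced peak, against 2.73% of all control peaks. They included the promoters of Tdg, a glycosylase that excises oxidised methylcytosine (15 control tags at 5.38-fold and 11 induced tags at 8.59-fold), and of Prmt6, an arginine methyltransferase (18 control tags at 5.86-fold and 37 induced tags at 9.87-fold). A control exon peak of Nsd2 (26 tags at 7.33-fold) also overlapped an induced peak assigned to Nsd2 (10 tags at 10.74-fold). That induced peak was not of the exon class. The strongest induced exon peak of this list was at Rbbp7, a histone-binding subunit of Polycomb and deacetylase complexes, with 22 tags at 23.62-fold. Exon peaks were found at 2 of the 96 genes without induction (2.08%, against 1.65% of protein-coding genes) and at 7 with it (7.29%, against 3.84%). The difference between the lists was not tested.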

How the data were processed

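Per the submitters' processing notes, Bowtie2 2.2.7 aligned the reads to mm10 (GRCm38) and FastQC was named as well; no peak caller was given. Per the file headers, a list set 1 ChIP library against its matching input, and nothing was pooled. The authors deposited tag counts per peak as whole numbers, without normalization. They deposited fold enrichment as a ratio over a background of unstated origin. Peak strength was a deposited score, here divided by 10 and called −log10 p. The false discovery rate is the authors' percent. Classes were also the authors': promoter within 2 kb of a start site, upstream from 2 to 20 kb, exon, intron or intergenic.

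A peak listed for several transcripts was counted once per gene, with the distance to the nearest start site. Gene spans, types and pseudogenes came from a RefSeq table of GRCm38.p6. Peaks inside genes were found by overlap of at least 1 bp, and strand was taken from the deposited lists or the RefSeq promoter table. Named genes were all members with a promoter or exon peak, the 5 of highest fold and the 5 with most peaks in each list, and related genes with a promoter or exon peak. Peaks inside genes but assigned elsewhere were named after their values were seen, as were members without peaks and, to complete their families, Dnmt3b, Kat7, Kat8, Sirt1 and Sirt5. The members and lists were chosen with earlier results of these data known, and the length classes were set while analysing. Shares carry 95% Wilson intervals, and a count of 0 is given with the limit of 3 counts. No p-value was computed. Overlap counting was checked on 5000 simulated peaks, where 200 of 200 planted overlaps were recovered. The software was Python 3.11.15 with numpy 2.4.6, pandas 2.3.3, matplotlib 3.10.9 and scipy 1.17.1.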

Additional observations from a re-analysis of the deposited data

How the results depend on the processing

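No paired analysis was possible because there was a single ChIP library in each condition, which also prevents leaving one out. Keeping only peaks with −log10 p of 7 or more, which by construction leaves fewer, took members with an assigned peak to 6 (control) and 12 (induced), with 1 in both. Members with a promoter peak then numbered 4 and 0, peaks assigned to members 7 and 18, members with a peak inside the gene 5 and 13, and induced peaks near the 3′ end 4. Equal numbers of top peaks gave 2 members with an induced promoter peak and 62 induced peaks assigned to members. A limit of 1 kb from the start site left 3 members with a control promoter peak. The alternatives on the 3′ end and the one without Hdac9 were chosen after seeing the data, and a limit of 2 kb from the 3′ end gave 1 control peak, at Kmt2a. The count of 0 overlapping member peaks stayed at 0 under each alternative run for it, and the other values stayed within 1.5 times.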
